A study of Rattus norvegicus with 28 samples.

Results

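Il1rl1 encodes ST2, the cell-surface receptor for the cytokine interleukin 33. It is 1 of 13337 genes named on the array and was taken as every probe that carries its symbol, which is 1 of 22523 probes, read on all 28 arrays of the study. The gene was selected on these same arrays for its rise with desipramine, the unevenness of that rise and a smaller rise with fluoxetine. Its own levels are therefore given as a description with no test, and tests are given for other genes of its pathway.

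The study measured total RNA from C6, a single rat glioma cell line with astrocyte-like features that was derived from a tumour induced by N-nitrosomethylurea. All cells, the controls included, were kept in serum-free medium for 24 h, and the drug groups then received 25 µM of 1 drug for 2 h. The groups were untreated cells (6 arrays), cells given desipramine, a tricyclic inhibitor of noradrenaline reuptake (6 arrays), fluoxetine, a selective inhibitor of serotonin reuptake (6 arrays), haloperidol, a dopamine receptor antagonist (6 arrays), and diazepam, a benzodiazepine that acts on GABA type A receptors (4 arrays, numbered 1, 4, 5 and 6). The labels call the arrays of a group biological replicates of this 1 line, name no vehicle for the untreated cells and give a single dose and time.

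Interleukin 33 is held in the nucleus of barrier and glial cells and is released when they are damaged. It binds ST2, which then recruits the accessory chain Il1rap, and the adaptor Myd88 and the Irak kinases pass the signal to NF-kB and to the stress-activated MAP kinases. Among immune cells ST2 marks mast cells and type 2 lymphocytes. In rodent fibroblasts the gene was first met as one induced by serum, by Ras and, in the rat, by Fos, and it gives a membrane receptor and a secreted decoy form. Which of these forms the probe reads was not determined here.

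Desipramine array 6 showed the smallest response of the desipramine arrays over the probes called. Over the 482 probes called higher with desipramine in a fit without it, the median difference from the untreated mean was 0.18 on the log2 scale on array 6 and 0.45 over the other 5 arrays. Over the 351 probes called lower the medians were -0.13 and -0.39. The probes were chosen on the other 5 arrays and not on array 6. Treated the same way, array 2 stood at 0.32 against 0.46 and array 1 at 0.40 against 0.47, while arrays 3, 4 and 5 stood at 0.59, 0.59 and 0.57, above the others. The number of probes detected was 9857 on array 6, the lowest of the desipramine arrays, 9894 on array 4 and 10125 to 10275 on the others. Fluoxetine array 5 and diazepam array 6 had fewer, at 9852 and 9839. Values without array 6 are given below for the genes described array by array, and why it differs was not tested.

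The Il1rl1 gene lies on the plus strand of rat chromosome 9, at chr9:50157326-50222888 in the RefSeq annotation of the GRCr8 build, where it has 11 annotated transcripts. The 250 bases before 1 annotated start at 50203638, which lies 46312 bases inside the left end of the gene, are shown because the early genes described below include makers of AP-1, the factor through which the rat gene was found. They occupy chr9:50203388-50203637 on the plus strand, and the capitals mark the only match to the GC box GGGCGG.
Il1rl1: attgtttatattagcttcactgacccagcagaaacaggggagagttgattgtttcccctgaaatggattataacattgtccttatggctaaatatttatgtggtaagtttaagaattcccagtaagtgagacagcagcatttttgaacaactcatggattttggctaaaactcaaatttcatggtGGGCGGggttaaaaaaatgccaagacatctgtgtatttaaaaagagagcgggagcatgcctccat
The GC box starts at -65 and was found in 30.47% of all 33469 windows of that length. Both strands were searched for each motif. The AP-1 motif TGANTCA had 0 matches and was present in 6.34% of windows, the cyclic AMP motif TGACGTCA had 0 matches against 1.587% of windows, and the GATA motif GATAA had 0 matches against 23.47%. This says only that these letters are not in this window, and other annotated starts of the gene were not searched.

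Il1rl1 was dim but detected in untreated C6 cells, and it was higher on 5 of 6 desipramine arrays and on all 6 fluoxetine arrays than on any untreated array. Its normalized log2 intensity on untreated arrays 1 to 6 was 5.89, 5.71, 5.39, 5.70, 5.58 and 5.77, a mean of 5.67 ± 0.17 (SD, n = 6). The detection p-value, which compares a probe with the negative-control beads of its array, was under 0.05 on 27 of the 28 arrays, the exception being haloperidol array 6 at 0.0703. The level in untreated cells was thus above the array background but close to it, between the 15.4 and the 28.2 percentile of the probes kept.

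With desipramine the values on arrays 1 to 6 were 7.99, 7.60, 9.04, 8.87, 8.73 and 5.87, a mean of 8.01 ± 1.19 (SD, n = 6). Arrays 3, 4 and 5 were the highest, arrays 1 and 2 lay between them and the controls, and array 6 lay inside the untreated range. It was there through untreated array 1 alone, at 5.89, and was above the other untreated arrays. Without array 6 the mean was 8.44 ± 0.62 (SD, n = 5) and no desipramine value overlapped any value of another group. The unnormalized intensities showed the same order of arrays 3 to 6, at 583, 443, 436 and 114 units, against 104 to 123 units in untreated cells.

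**Figure D1:**
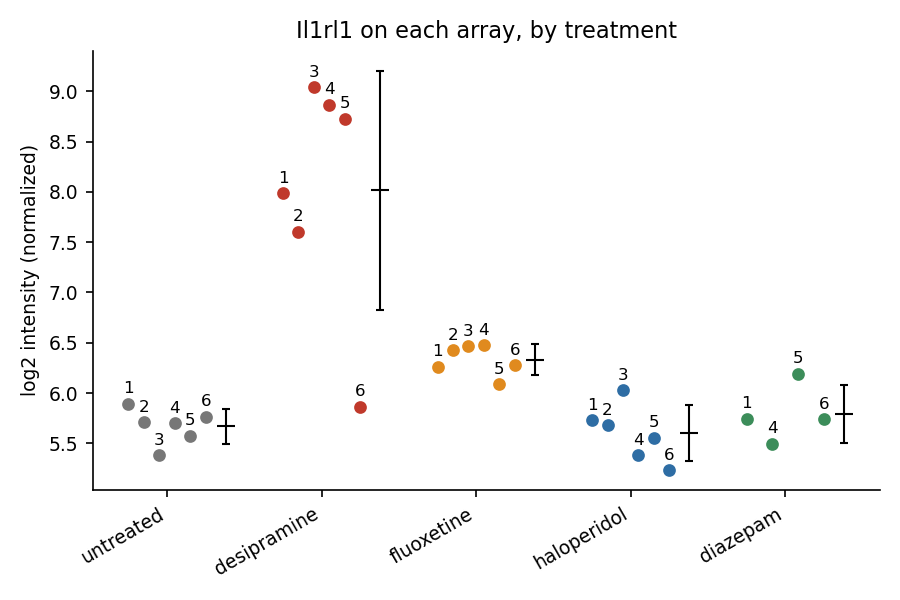
Normalized log2 intensity of Il1rl1 on each array (points, numbered by replicate) in the 5 groups, with the group mean and SD as a black bar. Desipramine arrays 1 to 5 lie between 7.60 and 9.04. Desipramine array 6 lies at 5.87, below untreated array 1 and above the other untreated arrays. The fluoxetine arrays lie between 6.09 and 6.48, above every untreated array.

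With fluoxetine the level was higher by less and varied less between arrays. Its arrays 1 to 6 read 6.26, 6.42, 6.47, 6.48, 6.09 and 6.28, a mean of 6.33 ± 0.15 (SD, n = 6), so the lowest fluoxetine array exceeded the highest untreated array. On the same scale haloperidol arrays 1 to 6 read 5.73, 5.68, 6.03, 5.38, 5.56 and 5.24, a mean of 5.60 ± 0.28 (SD, n = 6). Diazepam arrays 1, 4, 5 and 6 read 5.74, 5.50, 6.19 and 5.74, a mean of 5.79 ± 0.29 (SD, n = 4). Haloperidol array 3 and diazepam array 5 were above the untreated range, and the other arrays of these groups were not.

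By group mean the order was desipramine, fluoxetine, diazepam, untreated and haloperidol. The last 3 overlapped one another and their means differed by less than the SD within diazepam or haloperidol. Desipramine and fluoxetine overlapped through desipramine array 6 alone, which was below all 6 fluoxetine arrays. Fluoxetine and diazepam overlapped through diazepam array 5.

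As log2 differences from untreated, Il1rl1 stood at 2.34 (SE 0.30) with desipramine and 0.66 (SE 0.30) with fluoxetine. The log2 differences were -0.07 with haloperidol and 0.12 with diazepam. The fit used a single estimate of the spread for all groups, so both SEs are equal. The SD over arrays was 1.19 with desipramine, 0.15 with fluoxetine and 0.17 untreated. The shared SE therefore overstates the scatter behind the fluoxetine difference and understates that behind the desipramine difference. With an offset of 50 in place of 16 before the logarithm, the fluoxetine difference was 0.43. The desipramine difference ranked 1 of 11364 probes by size of rise and the fluoxetine difference ranked 74, the ranks by which the gene was selected. Desipramine exceeded fluoxetine by 1.68, a 3.21-fold difference that ranked 2. Without desipramine array 6 the desipramine difference was 2.77 (SE 0.18).

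Set against the untreated array of the same replicate number, Il1rl1 was higher on all 6 desipramine arrays, by 0.10 to 3.65 log2 units, the lowest being array 6. With fluoxetine it was higher on all 6, by 0.37 to 1.08. With haloperidol it was higher on 1 of 6 and with diazepam on 1 of 4.

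The desipramine value depended on which arrays entered. It was 2.70 over arrays 1 to 4 and 1.63 over arrays 5 and 6, and with array 6 left out of the full set it rose to 2.77. Fluoxetine gave 0.73 over arrays 1 to 4 and 0.51 over arrays 5 and 6. These 2 sets of replicate numbers are considered apart because earlier results of these data separated them, and the labels name no batch.

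The unevenness of Il1rl1 lay in the desipramine arrays. Its SD over the desipramine arrays was 1.19, the largest of 11364 probes, where the median probe had 0.16. Only 1 other probe exceeded an SD of 1 there, that of Nppb, the gene of brain natriuretic peptide, at 1.02. In untreated cells the SD of Il1rl1 ranked 4709 and in fluoxetine cells 5623, and in haloperidol and diazepam cells it was 0.28 and 0.29, ranking 1272 and 1268. These ranks describe the values by which the gene was selected.

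The partner chain and the ligand of the receptor moved in opposite directions with desipramine. Of 20 other genes of the interleukin 1 family, 18 had a probe and 5 were detected well enough to be tested, and with desipramine 1 was higher and 1 lower. Of all 11364 probes tested, 5.59% were called with desipramine at an adjusted p under 0.05 (limma, Benjamini-Hochberg over all probes), 3.75% with fluoxetine, 3.73% with haloperidol and 0.792% with diazepam, and 8.29% between desipramine and fluoxetine. With replicate number as a block the calls over all probes rose from 635 to 1105 with desipramine, from 426 to 861 with fluoxetine and from 942 to 1485 between the 2 drugs.

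Il1rap, the accessory chain that ST2 needs to signal, read 6.39, 6.38, 6.61, 6.85, 6.61 and 6.35 on desipramine arrays 1 to 6. On the untreated arrays it read 5.62, 6.10, 6.02, 5.99, 5.90 and 6.15. The groups did not overlap, and array 6, though the lowest, was above every untreated array. The log2 difference was 0.57 (SE 0.12), a 1.48-fold rise with an adjusted p of 0.00251 in limma, and 0.60 without array 6 (adjusted p = 0.0015 in limma). With arrays scaled to one median in place of quantile normalization it was 0.47 with an adjusted p of 0.0634 in limma. Fluoxetine gave 0.15, haloperidol 0.16 and diazepam -0.07, none of them called.

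The direct difference of Il1rap between desipramine and fluoxetine was 0.42 (adjusted p = 0.0220 in limma). The call did not hold without desipramine array 3 or 4 or without fluoxetine array 2, 5 or 6, where the adjusted p in limma lay between 0.0511 and 0.0806. It did not hold under median scaling (adjusted p = 0.287 in limma), with the authors' normalized values (0.0578) or over arrays 1 to 4 (0.143).

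Il33, the ligand of ST2, read 9.84, 9.79, 10.04, 9.99, 10.08 and 9.92 on desipramine arrays 1 to 6. The untreated arrays read 10.13, 10.56, 10.40, 10.46, 10.27 and 10.17, so all 6 desipramine arrays, array 6 included, were below all 6 controls. The log2 difference was -0.39 (SE 0.11), a 1.31-fold fall with an adjusted p of 0.0274 in limma, and -0.38 without array 6 (adjusted p = 0.0374 in limma). The call was lost, at adjusted p-values in limma from 0.0591 to 0.0798, without untreated array 2, 3 or 4 or desipramine array 1 or 2. It was also lost under median scaling, where the difference was -0.51 with an adjusted p of 0.0922 in limma. Fluoxetine gave -0.15, and the desipramine and fluoxetine arrays overlapped.

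**Figure D2:**
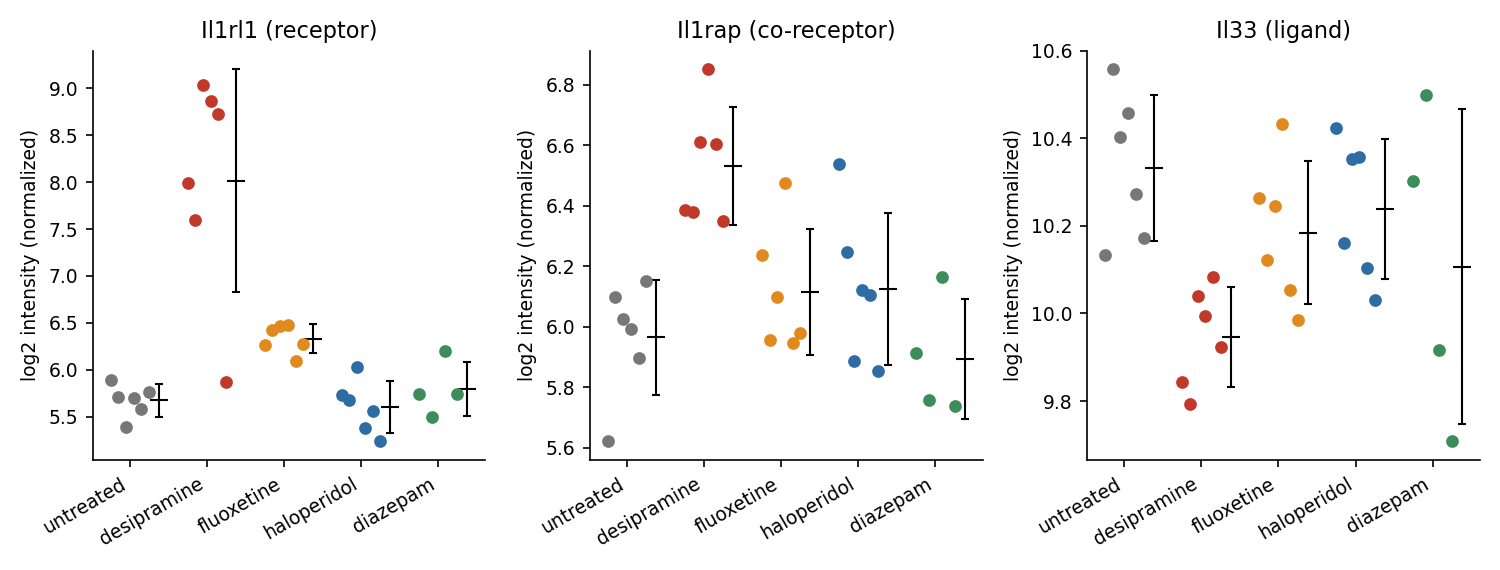
Normalized log2 intensity of Il1rl1, Il1rap and Il33 on each array by group, with the group mean and SD as a black bar; each panel has its own axis, and levels are not comparable between panels. The 6 desipramine arrays lie above the untreated arrays for Il1rap, from 6.35 to 6.85, and below them for Il33, from 9.79 to 10.08.

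The other tested family members were Il18, a related cytokine, its binding protein Il18bp and the neuronal receptor-like chain Il1rapl2, and none was called in any of the 5 comparisons with all arrays and no block. Il18 was lower by 0.26 on the log2 scale with desipramine, short of the threshold (adjusted p = 0.231 in limma), and was called, at -0.33 (adjusted p = 0.0304), with replicate number as a block and without array 6. The interleukin 1 receptor Il1r1 was detected on 2 arrays, and the decoy Il1r2, the related receptor Il1rl2, the interleukin 18 receptor Il18r1 and the inhibitory chain Sigirr on 0. The cytokines Il1a, Il36a, Il36b, Il36g and Il1f10 and the antagonist Il1rn were detected on 0 arrays, and Il1b and Il1rapl1 on 1.

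The close neighbours of Il1rl1 on the chromosome could not be tested. The receptors Il1r2, Il1r1, Il1rl2, Il18r1 and Il18rap lie beside it, Il18r1 at a distance of 0.386 kb and Il1rl2 at 23.1 kb. Of 12 listed neighbours 11 had a probe and 3 were tested, the kinase Map4k4 at 335 kb, the neural transcription factor Pou3f3 at 2215 kb and the mitochondrial ribosomal protein gene Mrps9 at 2383 kb. None was called in any comparison by limma, and 1 had an unadjusted p under 0.05, with haloperidol.

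Of the 22 tested genes that carry the signal of ST2, 5 were called with desipramine, where 5.59% of all probes were called. Of 31 listed, 26 had a probe and 22 were tested, and with desipramine 4 were higher and 1 lower, with a median log2 difference of 0.04 against -0.01 over all probes. The genes called higher were Map2k3, a kinase above p38 (0.57, adjusted p = 1.17e-05 in limma), the NF-kB subunit Nfkb2 (0.57, adjusted p = 0.00755), the NF-kB inhibitor Nfkbib (0.40, adjusted p = 0.00328) and Map2k4, a kinase above JNK (0.25, adjusted p = 0.0412). Map2k6, a second kinase above p38, was lower by 0.37 (adjusted p = 0.0336 in limma). Without array 6 the 5 stayed called, Map2k3 at 0.63, Nfkb2 at 0.67, Nfkbib at 0.47, Map2k4 at 0.27 and Map2k6 at -0.43. Map2k4 lost its call on leaving out any of 8 arrays and Map2k6 on leaving out any of 7.

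The adaptor Myd88 and the kinases Irak1, Irak2 and Irak4 were not called with desipramine, and Myd88 stood at 0.03. Irak2 was detected on 0 untreated and 0 desipramine arrays, so for it this compares background readings. Irak3, a catalytically inactive member that restrains this pathway, differed between the 2 antidepressants. It read 7.09, 7.18, 6.96, 7.12, 7.22 and 6.95 on fluoxetine arrays 1 to 6, above the whole untreated range of 6.07 to 6.43 and above every desipramine array, whose highest value was 6.61. With fluoxetine Irak3 rose by 0.77 (SE 0.10, adjusted p = 3.98e-06 in limma), with desipramine it stood at 0.05, and the direct difference was -0.72 (adjusted p = 1.73e-05 in limma), or -0.77 without desipramine array 6.

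Fluoxetine called 2 of the 22 signalling genes, Irak3 and the NF-kB inhibitor Nfkbia, which was higher by 0.36 (adjusted p = 0.0265 in limma). Haloperidol called 2, Myd88 at 0.32 and Map2k3 at 0.27 (adjusted p = 0.0348 and 0.0411 in limma), and diazepam 0. At an unadjusted p under 0.05 in limma the 22 held 6 genes with desipramine, 4 with fluoxetine, 10 with haloperidol and 4 with diazepam. The counts over all 11364 probes were 2022, 1783, 1834 and 1058. In the same order of drugs, the median log2 differences of the 22 were 0.04, 0.08, 0.13 and 0.03. The Nfkbia call was lost on leaving out any of 5 arrays, that of Myd88 on any of 7 and that of Map2k3 with haloperidol on any of 9. Between desipramine and fluoxetine 3 were higher, among them Map2k3 by 0.50 (adjusted p = 6.22e-05 in limma), and 3 were lower.

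Of 20 listed chemokines and other genes that interleukin 33 and NF-kB are known to induce, 10 were tested. With desipramine 6 were called higher and the other 4 were not called, with a median log2 difference of 0.50. The share called among all probes was 5.59%. The monocyte chemokines Ccl2 and Ccl7 were higher by 1.28 and 1.10 (adjusted p = 0.000185 and 0.00239 in limma), the neutrophil chemokine Cxcl1 by 1.07 (adjusted p = 0.0117) and the prostaglandin synthase Ptgs2 by 1.21 (adjusted p = 0.000113). The T cell chemokine Cxcl10 and the adhesion molecule Icam1 were higher by 0.55 and 0.44. Of these 6, only Icam1 was above every untreated array on all 6 desipramine arrays. The other 5 were so on 5 of the 6 arrays.

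Without desipramine array 6 the differences of Ccl2, Ccl7, Cxcl1 and Ptgs2 were 1.53, 1.38, 1.31 and 1.40, and those of Cxcl10 and Icam1 0.68 and 0.48. Ptgs2 then also differed directly from fluoxetine, by 0.53 (adjusted p = 0.0376 in limma), which it did not with all arrays. With fluoxetine 2 of the 10 were higher, Cxcl1 by 1.24 and Ptgs2 by 0.87, and the median was 0.12. Haloperidol and diazepam called 0 in limma, where 1 gene each had an unadjusted p under 0.05, with medians of -0.15 and -0.04. Ccl2 and Ccl7 differed directly between desipramine and fluoxetine, by 1.05 and 1.02 (adjusted p = 0.00149 and 0.0036 in limma), while Cxcl1 stood at -0.17 in that comparison (adjusted p = 0.802 in limma).

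Among factors of the AP-1 family, 10 of 16 were tested, and with desipramine 6 were higher and 1 lower. With fluoxetine 5 were higher and 0 lower, with haloperidol 5 higher and 1 lower, and with diazepam 0 higher and 1 lower. Among all probes these drugs called 5.59% (desipramine), 3.75% (fluoxetine), 3.73% (haloperidol) and 0.792% (diazepam). Fos, the factor linked to Il1rl1 in rat fibroblasts, read 8.20, 8.21, 7.91, 8.37, 8.11 and 7.88 on desipramine arrays 1 to 6 against 7.03 to 7.68 in untreated cells. All 6 arrays, array 6 included, lay above the controls. On array 6 Fos was thus above the untreated range while Il1rl1 was within it, though through untreated array 1 alone. The difference was 0.75 (SE 0.11, adjusted p = 7.11e-05 in limma), and 0.80 without array 6.

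Fos stood at 0.37 with fluoxetine (adjusted p = 0.0637 in limma) and was higher by 0.48 with haloperidol (adjusted p = 0.0111 in limma), a drug with which Il1rl1 stood at -0.07. The Fos call with haloperidol was lost under median scaling (adjusted p = 0.161 in limma) and over arrays 1 to 4 (0.158). Fos with fluoxetine was called with replicate number as a block and without desipramine array 6 (adjusted p = 0.0487 in limma).

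Jun, the usual partner of Fos, was lower by 0.30 with desipramine (adjusted p = 0.0191 in limma), by 0.64 with haloperidol and by 0.51 with diazepam. The desipramine call was lost without untreated array 2 (adjusted p = 0.0565 in limma). Junb was higher by 0.79 with desipramine (adjusted p = 0.0119 in limma), though untreated array 1, at 11.81, lay within the desipramine range of 10.76 to 11.87. The stress-induced factor Atf3 was higher by 0.54 with desipramine, by 1.60 with fluoxetine and by 0.87 with haloperidol, and on desipramine array 6 it had the highest value of its group, 7.36. Without that array the desipramine differences were -0.25 for Jun, 0.92 for Junb and 0.45 for Atf3, all still called. The small Maf factors Maff, Mafg and Mafk were higher with both antidepressants, by 0.60 to 0.96, and Mafg and Mafk also with haloperidol, by 0.28 and 0.40 (adjusted p = 0.00581 and 0.0262 in limma). Maff was detected on 1 of 6 untreated arrays and on all 6 of each antidepressant. It thus passed the filter through the groups where it was higher, and its untreated level is close to a background reading. The counts of higher AP-1 factors with both antidepressants include it.

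Of 20 listed feedback and early genes of the ERK pathway, which Ras and serum engage, 18 were tested, and with desipramine 11 were higher, 0 lower and 7 not called, with a median of 0.56. Fluoxetine called 8 higher, with a median of 0.36, haloperidol 2, and diazepam 1 higher and 1 lower. The shares of all probes called were 5.59% with desipramine, 3.75% with fluoxetine, 3.73% with haloperidol and 0.792% with diazepam. The receptor kinase inhibitor Spry4 read 7.00, 7.04, 7.40, 7.84, 7.53 and 7.09 on desipramine arrays 1 to 6 against 5.70 to 6.27 in untreated cells. The groups did not overlap, and array 6 was above array 1 and array 2, unlike for Il1rl1.

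Spry4 was higher by 1.41 (SE 0.16, adjusted p = 8.35e-07 in limma) with desipramine and by 0.69 (adjusted p = 0.00755 in limma, and 0.117 over arrays 1 to 4) with fluoxetine, and the direct difference was 0.72 (adjusted p = 0.00321 in limma). The ERK phosphatases Dusp4 and Dusp6 were higher by 0.83 and 0.87 with desipramine, the early genes Phlda1, Ier3 and Ier2 by 1.08, 1.07 and 1.02, and Myc by 0.73. Dusp4, Dusp6 and Myc were above every untreated array on all 6 desipramine arrays. Ier3 and Ier2 were so on 3 and Phlda1 on 0. Dusp4 was detected on 2 of 6 untreated arrays, on all 6 with desipramine and on 4 with fluoxetine. It thus passed the filter through the groups where it was higher, and its difference is set against controls near background. Without array 6 Spry4 stood at 1.45, Dusp4 at 0.92, Dusp6 at 0.93, Phlda1 at 1.27, Ier3 at 1.17, Ier2 at 1.14 and Myc at 0.74. With replicate number as a block Dusp6 was also called with fluoxetine, at 0.39 (adjusted p = 0.0278 in limma), and the receptor kinase inhibitor Errfi1 with desipramine, at 0.35 (adjusted p = 0.0415 in limma). Srf, the serum response factor, rose less with desipramine than with fluoxetine, by 0.33 and by 0.98 (direct difference -0.64, adjusted p = 2.73e-06 in limma). Srf was higher by 0.73 with haloperidol.

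Of the factors tied to Il1rl1 in mast cells and lymphocytes, Gata1, Gata3, Spi1 and Irf4 were detected on 0 arrays. Gata2, which acts in mast cells, was detected on all 28 and was not called in any comparison with all arrays and no block. It was called at -0.29 with fluoxetine under the block (adjusted p = 0.0406 in limma) and at 0.32 between desipramine and fluoxetine without desipramine array 6 (adjusted p = 0.0436 in limma). Of the 4 tested, 1 was called with desipramine, Runx1, a factor of blood stem cells, higher by 0.60 (adjusted p = 0.00285 in limma), and by 0.71 without array 6.

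Over all these lists 72 of 123 genes were tested. Of these, 32 were called with desipramine, 17 with fluoxetine, 10 with haloperidol, 3 with diazepam and 23 between desipramine and fluoxetine. Among all probes the shares called were, in the same order, 5.59%, 3.75%, 3.73%, 0.792% and 8.29%. The lists were chosen with earlier results of these data known. Without desipramine array 6 the counts were 34 with desipramine and 27 between the 2 antidepressants. Under the replicate block Jdp2 and Egr2 were also called between the 2 antidepressants, at -0.43 and -0.32 (adjusted p = 0.0400 and 0.0365 in limma). Scaling each array to one median lowered the desipramine count to 16 and moved the share of higher genes among all calls from 60.3% to 33.1%, between desipramine and fluoxetine from 44.6% to 24.0% and with diazepam from 47.8% to 9.52%. The 16 desipramine calls that it ended were those of Il1rap, Il33, Jun, Junb, Atf3, Nfkb2, Nfkbib, Map2k4, Cxcl1, Cxcl10, Icam1, Phlda1, Egr1, Egr2, Srf and Runx1. It also ended the fluoxetine calls of Nfkbia, Ptgs2, Spry2, Ier2 and Errfi1, and the haloperidol calls of Fos, Myd88, Map2k3, Mafg, Mafk and Errfi1. Between desipramine and fluoxetine it ended those of Il1rap, Fos, Jun, Junb, Nfkbib, Map2k4, Cxcl10, Icam1, Dusp4, Dusp6, Phlda1, Ier3 and Runx1. That scaling moved the median of all probes by -0.12 with diazepam. With the authors' normalized values the diazepam share was 34.7%. Over arrays 5 and 6 alone 0 list genes were called with desipramine by limma, where 842 of all probes had an unadjusted p under 0.05. These comparisons share the untreated arrays.

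**Figure D3:**
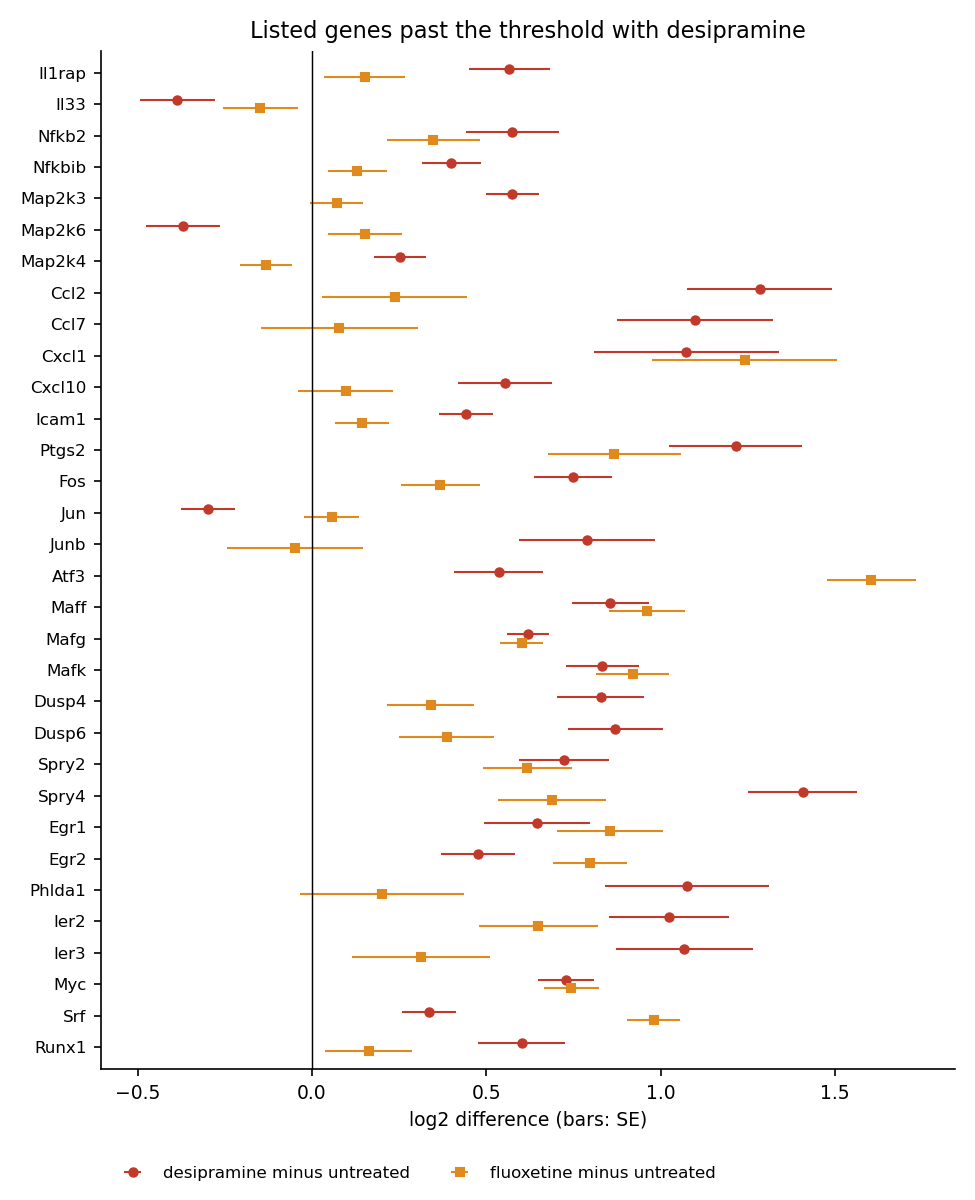
Log2 differences from untreated (points, with SE bars) of the 32 list genes called with desipramine, for desipramine (circles) and fluoxetine (squares). Il33, Map2k6 and Jun lie below 0 with desipramine and the other 29 above, with Spry4 the highest at 1.41, while Atf3, at 1.60 with fluoxetine, lies furthest right.

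The genes whose pattern was most like that of Il1rl1 were found by Pearson's r over the 28 arrays, among 7957 named genes. They were Kcnn4, a calcium-activated potassium channel (r = 0.931), Nppb (0.930), the activin-binding protein Fst (0.925), Ccl2 (0.924) and Cdc42se1, a small effector of Cdc42 (0.922). With each group's mean taken off, the 5 most alike were Fst (0.885), Sh2b3, an adaptor that restrains cytokine receptors (0.847), Kcnn4 (0.843), Upp1, a uridine phosphorylase (0.823), and the small membrane protein gene Smim3 (0.819). Each r was picked as the highest of many over arrays that share their groups and carries no p. In all 55 genes exceeded 0.8 over the 28 arrays.

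The likeness lay in the desipramine arrays. With group means removed, over the 22 arrays without desipramine the r of these 8 genes ran from -0.12 to 0.40. Leaving out desipramine array 6 left r over the other 27 arrays between 0.910 and 0.937. On that array Ccl2 read 10.14, Kcnn4 10.00, Upp1 8.83, Smim3 9.84, Sh2b3 9.09 and Cdc42se1 9.29, all within their untreated ranges. For Smim3 and Cdc42se1 this held through untreated array 1 alone, and the other untreated arrays were lower. Fst, at 8.90, was just below its lowest untreated value of 8.93.

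Nppb was the exception. It read 6.99, 6.51, 8.01, 8.32, 8.57 and 6.11 on desipramine arrays 1 to 6, and array 6, though the lowest, was above the untreated range of 5.34 to 5.57. The 8 genes were picked on arrays that include array 6, so their low values there follow in part from how they were picked. Genes not picked that way went either way on array 6. Il1rap, Fos, Spry4, Icam1 and Atf3 were above every untreated array there and Il33 was below every one. Cxcl1, Cxcl10, Ptgs2 and Junb, at 8.86, 9.11, 9.70 and 10.76, were within their untreated ranges. Ccl7, at 7.27, was below its lowest untreated value of 7.34.

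**Figure D4:**
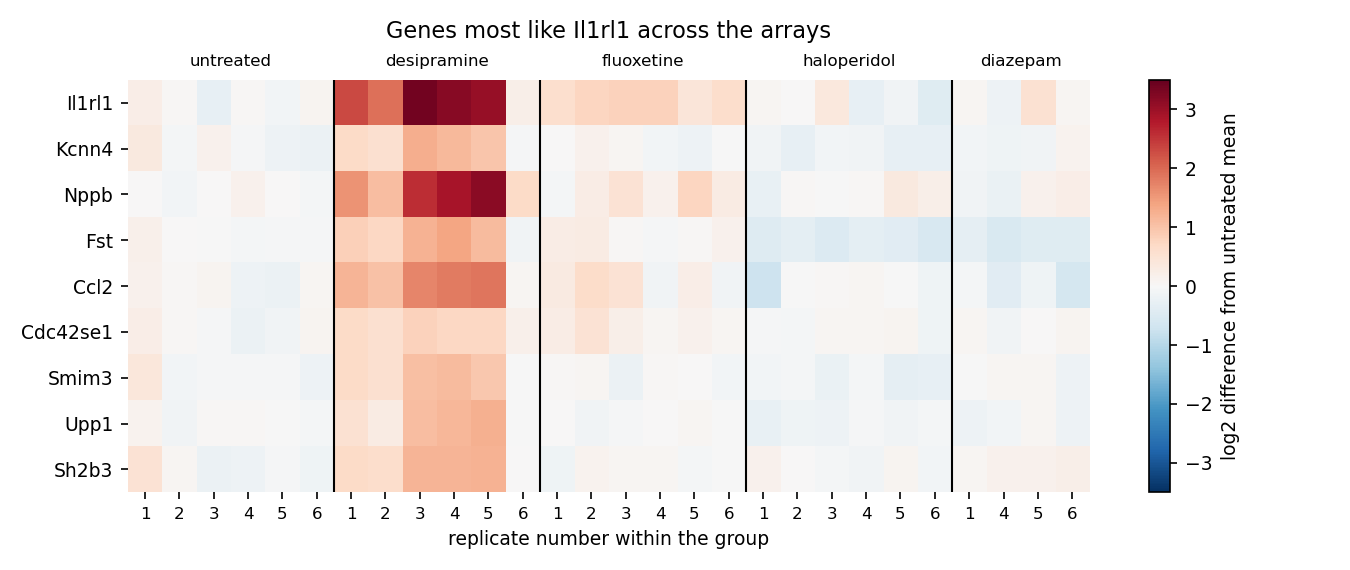
Log2 difference from the untreated mean (colour, red higher and blue lower) of Il1rl1 and the 8 genes most like it on each of the 28 arrays, ordered by group and replicate number. Desipramine arrays 1 to 5 are red in every row and array 6 is near 0 in all rows except Nppb, and in the Il1rl1 row all 6 fluoxetine arrays are also red.

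In windows of the same length before their annotated starts, Nppb, Cdc42se1, Smim3, Upp1, Sh2b3, Il1rap and Il33 had 0 matches to the AP-1 motif. The motif was present in 6.34% of all windows, so 0 matches in so few windows is near that share and says nothing particular about these genes. The table of starts used here did not list Kcnn4, Fst and Ccl2.

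Markers of C6 cells and of other cells that carry ST2 were read on the same arrays. Of 9 astrocyte and glial markers with a probe 8 were detected and 7 on all 28 arrays, among them Gfap, S100b and Vim, while the water channel gene Aqp4 was detected on 0. Of 8 mast cell markers 7 were detected on 0 arrays and Cpa3 on 1, and their summed intensity was 211 to 225 units in untreated cells and 211 to 218 with desipramine. Of 6 lymphocyte markers 5 were detected on 0 arrays and Cd3e on 15, with sums of 161 to 174 untreated and 163 to 174 with desipramine. The macrophage markers Aif1 and Tyrobp and the endothelial markers Cdh5, Vwf and Tek were detected on 0 arrays. Cd14 was on all 28, Cldn5 on 26, Cx3cr1 on 16 and Itgam on 9. With bulk RNA, fewer cells that express a gene and less of its RNA per cell cannot be told apart.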

How the data were processed

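The authors deposited bead-array intensity and a detection p-value per probe and array, with a second table of normalized intensity, exported from GenomeStudio 1.9.0 per the submitters' processing notes; the normalization is not given in the sources used here. Here the unnormalized intensities were background corrected with negative controls inferred from the detection p-values, quantile normalized and taken to log2 with an offset of 16 (neqc, limma 3.58.1, R 4.3.3). Of 22523 probes, 11364 with a detection p-value under 0.05 on at least 4 arrays were kept. limma fitted 1 mean per group over 28 arrays, two-sided, with Benjamini-Hochberg adjustment over all kept probes. Array number and detection, not read depth, limit the precision.

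The gene and the lists were chosen with earlier results of these data known. Named genes were Il1rl1, list genes called in any comparison, family members, neighbours, and the 5 most correlated genes over all arrays and after group means were removed. Each gene was read by its brightest probe, and 8730 probes had no gene symbol. The 4 columns of 2 arrays with no labelled sample here were not used.

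Same-numbered arrays deviated together in every pair of untreated and desipramine (correlation 0.223 to 0.467), untreated and fluoxetine (0.104 to 0.508), and desipramine and fluoxetine (0.139 to 0.462), from the data and not the labels.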

Additional observations from a re-analysis of the deposited data

Results flagged for a closer look

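In groups of 4 or 6 arrays, 7 of the 85 group profiles of 17 genes had 1 array whose gap to the nearest other exceeded Dixon's 95% limit, where chance flags about 1 in 20. All values are normalized log2 intensities. The 17 genes include Il1rl1, which was selected for its uneven desipramine values, so the lack of a flag on it carries no weight. Untreated array 1 was high for Junb, at 11.81, and for Smim3, at 10.26. Haloperidol array 6 was low for Atf3, at 6.77, haloperidol array 3 for Spry4, at 5.56, and haloperidol array 1 for Ccl2, at 9.36. Diazepam array 1 was high for Irak3, at 6.54, and diazepam array 6 for Kcnn4, at 10.18.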

How the results depend on the processing

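No difference changed sign past the threshold in any alternative run. The Il1rl1 difference with desipramine ran from 1.83 (offset of 50) to 2.58 (array weights) over alternatives that kept all arrays, and from 2.14 to 2.77 on leaving out 1 array. With fluoxetine it was 0.66 in the main run, and 0.43 with an offset of 50, a construction that shrinks differences of dim probes. On the authors' normalized values the log2 means were 6.89 with fluoxetine and 6.33 untreated, a gap below 0.66. On leaving out 1 array the fluoxetine difference ran from 0.60 to 0.71. The counts of list genes changed most with scaling and with fewer arrays. Median scaling gave 16 with desipramine, 4 with haloperidol, 1 with diazepam and 10 between desipramine and fluoxetine. Arrays 5 and 6 alone gave 0, 4, 0, 0 and 0 in limma for desipramine, fluoxetine, haloperidol, diazepam and desipramine against fluoxetine, with 842, 784, 1157, 1211 and 751 of all probes at an unadjusted p under 0.05, and arrays 1 to 4 gave 4 with haloperidol and 0 with diazepam (590 probes at an unadjusted p under 0.05). The cause of the change with scaling was not tested; the other fits had fewer arrays. On leaving out 1 array the diazepam count ran from 3 to 5, the higher without diazepam array 4.

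With replicate number as a block the diazepam list count was 5, and 6 with the block and without desipramine array 6, an alternative chosen after seeing the data. Of 285 differences of named genes the block added 10 calls, and 18 with array 6 also left out, and ended 0 in limma. Besides those given above, it added haloperidol calls of Irak3 (0.33), Irak2 (0.26) and Nfkbia (0.26) and diazepam calls of Irak2 (0.35) and Mafg (-0.25). Irak2 was detected on 0 untreated, 0 desipramine, 1 fluoxetine, 4 haloperidol and 4 diazepam arrays. It thus passed the filter through the groups where it was higher, and both its calls are set against background readings. The block moved calls over all probes from 424 to 848 with haloperidol and from 90 to 172 with diazepam, groups whose same-numbered arrays correlated with the untreated ones from -0.005 and 0.036 upward. The level of Il1rl1 near background in 4 groups limits what its small differences can show.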
